A study of Mus musculus with 81 samples.

Results

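CA1 pyramidal neurons (CA1 PNs) were compared with dentate gyrus granule cells (DGCs) of the same 6 disomic (2N) mice, which is 12 of the 81 samples of the series. The samples are the CA1 and DG samples whose labels give the genotype 2N and the diet ChN, and every mouse gave 1 sample of each population, so the populations were compared within mice. The mice were male 2N littermates of Ts65Dn (Ts) mice, born to Ts65Dn dams whose mates were F1 males of the cross C57Bl/6J Eicher × C3H/HeSnJ, and were 6 months old (6 MO). Their dams ate a diet with 1.1 g/kg choline chloride, and the same diet was given to the pups and to the offspring after weaning. No mouse carried an engineered allele or received a further agent. Neurons were recognised by eye in Nissl-stained coronal sections of the rostral hippocampus, and groups of them were cut out by laser capture microdissection (LCM) from about 6 sections per brain. CA1 PNs and DGCs came from the same sections, and the captured cells of 1 brain were pooled in 1 sample per population. Other 2N mice of 6 MO, from dams on a choline-supplemented diet (ChP, 5 g/kg), served as a second set with no sample in common. They were 7 in number with 14 samples. For reference levels, ChN samples of Ts CA1 PNs (5), Ts DGCs (6) and 2N CA3 pyramidal neurons (CA3 PNs, 5) were also read, all labelled 6 MO.

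Both populations are glutamatergic, but they stand at opposite ends of the hippocampal circuit. DGCs receive the perforant path from entorhinal cortex, fire sparsely and send mossy fibers to CA3, and their layer keeps generating neurons in adult mice. CA1 PNs receive the Schaffer collaterals of CA3 together with direct entorhinal input and carry the output of the hippocampus to the subiculum and cortex. Each population has a characteristic set of transcription factors, with PROX1 required for granule cell identity and NEUROD6 found in pyramidal neurons. The values below are expected counts per gene given per 1000000 counts of the library (CPM, scaled by TMM), and the log2 fold change (LFC) is CA1 PNs minus DGCs, with its standard error, over 6 mice. Fewer cells of a type and less RNA per cell cannot be told apart in such pooled captures.

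The promoters of 4 genes that separated the populations are shown because these genes carry the contrast, with Neurod6 and Sv2b found in CA1 PNs and Prox1 and Dsp in DGCs. Each sequence runs from 250 bases before to 50 bases after a RefSeq start site (build GRCm38.p6), and capitals mark matches to 4 short motifs on either strand. The TATA box was searched as TATAAA and is the site of the TATA-binding protein. The GC box was searched as GGGCGG and is bound by SP1 and related factors. An E-box to which NeuroD factors bind was searched as CAGATG, and the cAMP response element as TGACGTCA.
Neurod6, chr6:55681214-55681513, minus strand: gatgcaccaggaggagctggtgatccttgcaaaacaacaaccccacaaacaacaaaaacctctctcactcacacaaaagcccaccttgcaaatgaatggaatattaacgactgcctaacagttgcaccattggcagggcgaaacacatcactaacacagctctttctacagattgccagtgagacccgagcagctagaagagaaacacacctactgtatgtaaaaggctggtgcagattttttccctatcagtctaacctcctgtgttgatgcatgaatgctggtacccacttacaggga
Sv2b, chr7:75309213-75309512, minus strand: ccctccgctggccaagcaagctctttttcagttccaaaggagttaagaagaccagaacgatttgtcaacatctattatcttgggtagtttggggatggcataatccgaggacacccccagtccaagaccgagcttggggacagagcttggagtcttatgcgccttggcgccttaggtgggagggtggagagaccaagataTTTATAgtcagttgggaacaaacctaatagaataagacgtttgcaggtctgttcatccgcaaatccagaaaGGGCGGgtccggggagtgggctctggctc
Prox1, chr1:190170778-190171077, minus strand: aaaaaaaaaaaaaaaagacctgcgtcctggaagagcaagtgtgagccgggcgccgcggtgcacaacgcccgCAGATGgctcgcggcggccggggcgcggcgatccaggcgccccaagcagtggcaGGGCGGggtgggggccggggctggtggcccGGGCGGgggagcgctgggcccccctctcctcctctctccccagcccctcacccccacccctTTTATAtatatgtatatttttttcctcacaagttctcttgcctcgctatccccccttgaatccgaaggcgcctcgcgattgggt
Dsp, chr13:38151044-38151343, plus strand: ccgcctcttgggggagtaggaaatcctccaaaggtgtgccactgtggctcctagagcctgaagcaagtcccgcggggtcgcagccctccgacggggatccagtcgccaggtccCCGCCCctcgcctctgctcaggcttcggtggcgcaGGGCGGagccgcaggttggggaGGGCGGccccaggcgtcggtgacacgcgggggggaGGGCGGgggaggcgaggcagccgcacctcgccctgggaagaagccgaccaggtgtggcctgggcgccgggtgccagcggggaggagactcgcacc
The GC content of these windows was 46.3% for Neurod6, 51.3% for Sv2b, 64.3% for Prox1 and 73.0% for Dsp. The Neurod6 window held none of the 4 motifs, and the Dsp window held 4 GC boxes. Among the 12 genes with the largest fold change in each direction, described below, 9 of those higher in CA1 PNs and 12 of those lower had a promoter in the table. A GC box stood in 4 of the 9 and in 9 of the 12, against 35.9% of the 27025 promoters of the table. A TATA box stood in 2 of the 9 and 1 of the 12, against 14.2%. The E-box stood in 1 of the 9 and 1 of the 12, against 17.2%, and the cAMP response element in 1 of the 9 and none of the 12, against 1.88%. These matches are descriptions of the letters in the windows.

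Libraries that stood apart are named first. Total expected counts ran from 696340 to 1486710 per library, with overlapping ranges in both populations. The 7 CA1 PN markers summed to between 1177 and 2299 CPM in 5 of the CA1 PN libraries, but to 92.9 CPM in the library labelled CA1 of mouse 17-21, near the range of the DGC libraries (36.6 to 70.9). In that library Wfs1 stood at 7.05 CPM, Fibcd1 at 1.18 and Pou3f1 at 0, while Spink8 was at 68.2. Its 7 CA2 markers summed to 2156 CPM and its 6 CA3 markers to 607 CPM, and the CA1 library of mouse 17-154 had 693 and 203 CPM, against 72.1 to 145 and 29.2 to 43.1 CPM in the other CA1 PN libraries. The library labelled 2N of CA1 PNs of mouse 17-154 also had a mean of 6.63 log2 CPM over 37 genes that are triplicated in Ts mice, within the range of the Ts CA1 PN libraries (6.49 to 6.68), whereas the other 2N CA1 PN libraries had 5.83 to 6.03 and the DGC and CA3 libraries of this mouse had 5.99 and 6.06. The labels give mouse 15-145 both genotypes, since its CA1 and DG samples are labelled 2N and its CA3 sample Ts65Dn. Its CA1 and DG libraries had means of 5.91 and 6.10 log2 CPM over the triplicated genes, below the Ts libraries of both populations (from 6.49), and the test without this mouse called 2232 genes higher and 2097 lower. Counts are therefore given with all 6 mice and again with the 4 mice other than 17-21 and 17-154.

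**Figure D1:**
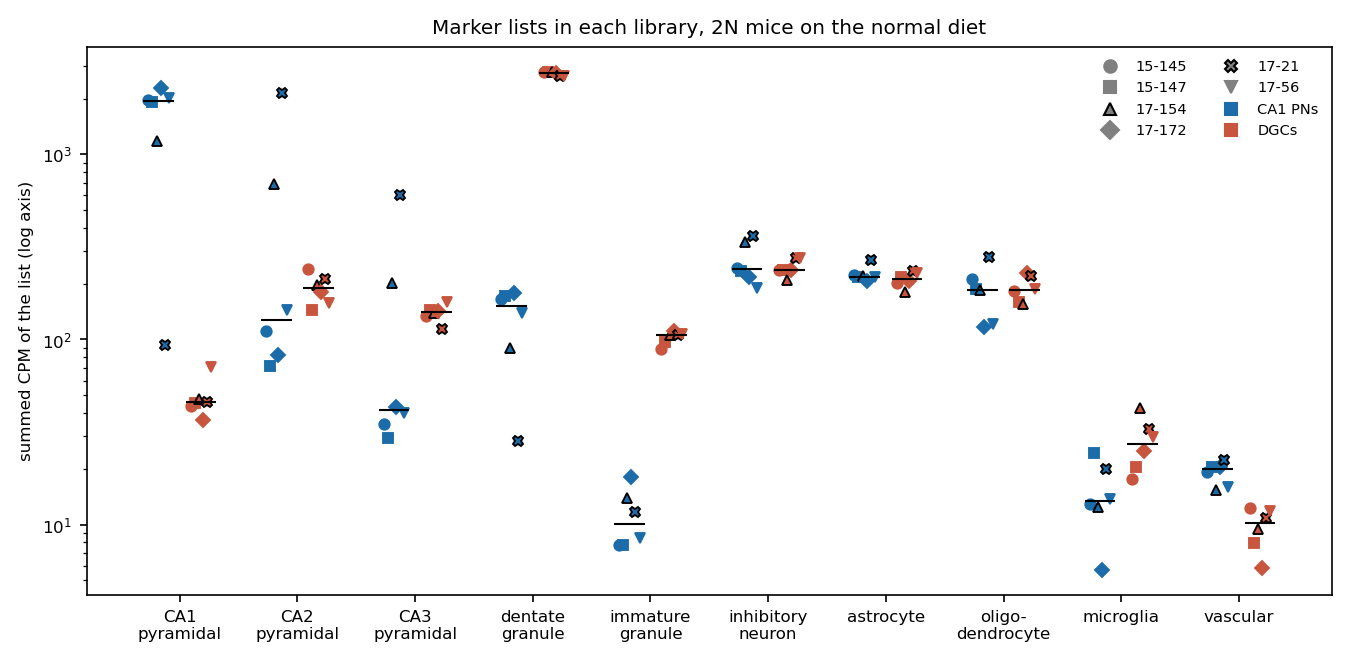
Summed CPM of each marker list (log axis) in the 12 libraries, blue for CA1 PNs and red for DGCs, with the symbol naming the mouse, black edges marking mice 17-21 and 17-154, and bars at the medians. The CA1 list falls to 92.9 CPM and the CA2 list reaches 2156 CPM in the library labelled CA1 of mouse 17-21, while the dentate list lies between 2660 and 2792 CPM in all 6 DGC libraries.

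The labelled populations were checked against their markers. Of 7 CA1 PN markers, 7 passed the test as higher in CA1 PNs, and 7 of 8 DGC markers passed as lower, the exception being Lct (0 to 157 CPM (median 117) in CA1 PNs and 253 to 376 CPM (median 308) in DGCs). In DGC libraries the dentate list summed to 2660 to 2792 CPM against 28.2 to 179 CPM in CA1 libraries, and at the median most of the latter was Lct. Both populations held similar sums of astrocyte markers (208 to 269 CPM in CA1 PNs and 179 to 234 in DGCs) and oligodendrocyte markers (117 to 279 and 156 to 229 CPM), and low sums of microglia markers (5.67 to 24.4 and 17.7 to 42.7 CPM) and vascular markers (15.4 to 22.3 and 5.82 to 12.3 CPM). Of 8 inhibitory neuron markers, 6 were higher in CA1 PNs and Gad1, which mature granule cells also express, was lower. The inhibitory sums were 190 to 364 CPM in CA1 PNs and 209 to 276 CPM in DGCs, of which Gad1 alone was 97.5 to 167 and 166 to 193 CPM. The 6 higher markers had LFCs from 0.66 (Gad2) to 5.41 (Sst), and Npy did not pass. The similar sums therefore do not show equal amounts of inhibitory neuron RNA. Of 6 mossy cell markers, Drd2, Calb2 and Csf2rb2 were at 0 in all DGC libraries, and Csf2rb2 was at 0 in all CA1 PN libraries too. Calcrl ran from 2.65 to 5.53 CPM in DGCs and from 0 to 10.6 CPM in CA1 PNs. Nmb ran from 0 to 2.37 CPM in DGCs and from 0 to 2.58 CPM in CA1 PNs. The sum of the list, most of it Ajap1, was 32.7 to 42.3 CPM in DGCs and 65.2 to 83.8 CPM in CA1 PNs. The choroid plexus markers Ttr, Folr1 and Clic6 were at 0 in all 12 libraries. The immature granule cell markers Dcx, Sox11 and Igfbpl1 were higher in DGCs. Their medians in CA1 PNs and DGCs were 0 and 20.6 CPM, 8.13 and 77.8 CPM, and 0 and 2.11 CPM. The list also held Eomes, at most 1.09 CPM in DGCs and 0 in CA1 PNs, and Tac2. Tac2 was at most 3.40 CPM in CA1 PNs and 0 in DGCs, and neither it nor Eomes was tested. The part of these other cells in the results below was not tested.

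Of 15363 genes tested, 2471 were higher in CA1 PNs than in DGCs (16.1%) and 2358 were lower (15.3%) with an adjusted p under 0.05 in edgeR's quasi-likelihood test with the mouse as a block. The median LFC over all genes tested was -0.03. Without mice 17-21 and 17-154, 2295 of 15542 genes were higher (14.8%) and 2319 were lower (14.9%), and 1971 and 1914 of the genes called with 6 mice were called in the same direction. Scaling by library totals in place of TMM moved the median LFC by -0.15 and gave 1894 higher and 3168 lower genes, so small differences in either direction depend on the scaling. The size of the difference was over 2-fold for 1182 of the genes higher in CA1 PNs and for 1304 of those lower, and over 8-fold for 292 and 323. The direction was the same in all 6 mice for 1976 of the higher and 1839 of the lower genes. Protein-coding genes made up 2310 of the higher and 1997 of the lower genes, and long noncoding RNA genes 58 and 131.

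**Figure D2:**
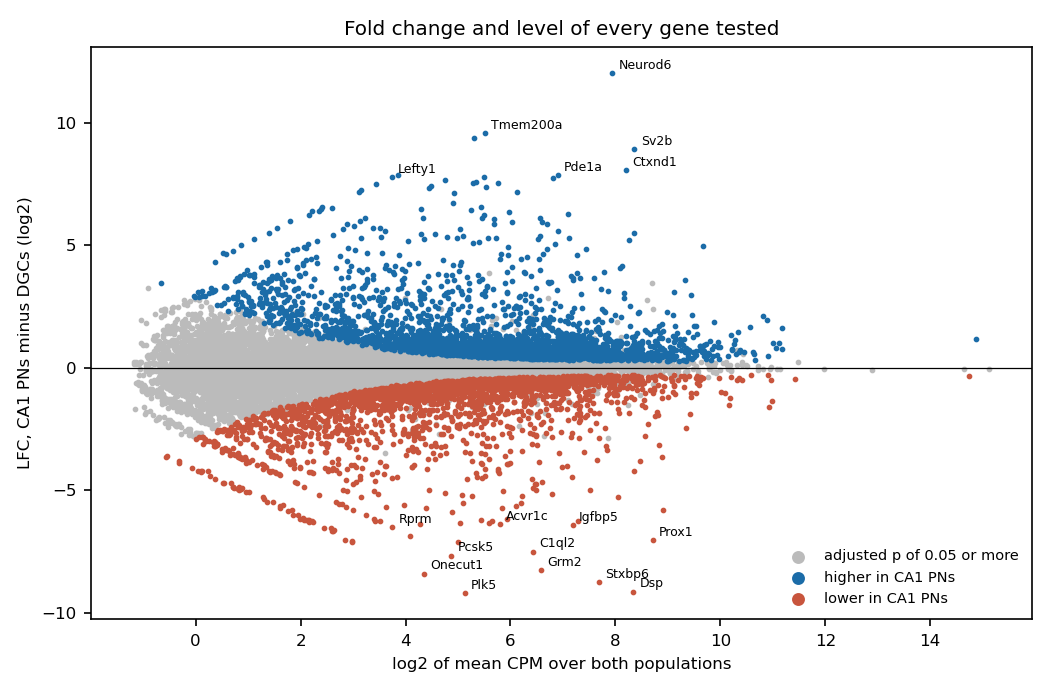
LFC of every gene tested (log2, CA1 PNs minus DGCs) against the log2 of its mean CPM over both populations, with genes of adjusted p under 0.05 in blue (higher in CA1 PNs, 2471 genes) and red (lower, 2358 genes). Names mark most of the 12 protein-coding genes with the largest fold change in each direction, and the lines of points at low levels are genes with few counts in 1 population.

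The marker genes of CA1 PNs separated the populations in 5 of 6 mice. Wfs1, which encodes the endoplasmic reticulum protein wolframin and lies on chromosome 5 at 37106176 to 37153872 (GRCm39, minus strand), ran from 7.05 to 893 CPM (median 768) in CA1 PNs and from 8.17 to 18.5 CPM (median 13.8) in DGCs. All values of CA1 PNs but that of mouse 17-21 lay above all values of DGCs, and the LFC was 5.21 ± 0.93 (adjusted p = 0.00922). Fibcd1, a receptor for acetylated carbohydrates, ran from 1.18 to 509 CPM (median 432) in CA1 PNs and from 10.8 to 36.4 CPM (median 25.7) in DGCs, with an LFC of 3.68 ± 0.79 (adjusted p = 0.0186), and its groups overlapped through the same library. Without mouse 17-21 alone the LFC of Fibcd1 was 4.04 ± 0.14 and passed, and with any 1 of the other 5 mice left out it did not pass (adjusted p from 0.061 to 0.0675, LFC from 3.30 to 3.66). Without mice 17-21 and 17-154 the LFC was 5.88 ± 0.14 for Wfs1 and 4.16 ± 0.14 for Fibcd1. The DGC markers did not overlap between the groups. Prox1, a homeobox factor, ran from 2.12 to 11.6 CPM (median 5.65) in CA1 PNs and from 752 to 924 CPM (median 824) in DGCs (LFC -7.03 ± 0.18, adjusted p = 7.68e-37). Dsp, which encodes the desmosome protein desmoplakin, ran from 0 to 2.92 CPM (median 1.12) in CA1 PNs and from 559.7 to 769.6 CPM (median 638) in DGCs (LFC -9.12 ± 0.24, adjusted p = 1.85e-32).

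Neurod6, a basic helix-loop-helix factor, had the largest fold change of the protein-coding genes that were over 20 CPM and moved the same way in all 6 mice. It ran from 424 to 581 CPM (median 488) in CA1 PNs and was at 0 in all 6 DGC libraries, which makes it at least 1113-fold higher in CA1 PNs when 3 counts over the DGC libraries are taken as the floor. Sv2b, a glycoprotein of synaptic vesicles, ran from 396 to 1211 CPM (median 554) in CA1 PNs and from 0 to 2.37 CPM (median 1.38) in DGCs (LFC 8.91 ± 0.25, adjusted p = 2.04e-24). Pde1a, a phosphodiesterase activated by calcium and calmodulin, ran from 184 to 277 CPM (median 235) in CA1 PNs and from 0 to 2.72 CPM (median 0.960) in DGCs (LFC 7.87 ± 0.29). Ctxnd1 ran from 372 to 689 CPM (median 612) and from 1.58 to 2.95 CPM (median 2.08) (LFC 8.05 ± 0.20). Chrm3, the M3 muscarinic acetylcholine receptor, ran from 111 to 298 CPM (median 222) and from 0 to 3.27 CPM (median 0.395) (LFC 7.75 ± 0.37). None of these genes overlapped between the populations. Tmem200a, Rem2 (a small GTPase that inhibits calcium channels) and Lefty1 (a secreted inhibitor of Nodal) were at 0 in all DGC libraries and at least 200.2-, 65.6- and 58.0-fold higher in CA1 PNs. Runx1t1, Ankrd63, Cpne8 and Ptpru had 1 to 3 counts over all DGC libraries and medians of 97.5, 53.2, 86.7 and 111 CPM in CA1 PNs. For Runx1t1, a transcriptional corepressor, the ratio was 304 with a 95% counting interval of 83.8 to 2519.

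CA3 PN libraries labelled 2N, from 5 of these mice, split the same 12 genes. With all libraries scaled together, Neurod6 (547 CPM at the median), Sv2b (1090.3), Chrm3 (203), Pde1a (147), Runx1t1 (105), Rem2 (60.8) and Tmem200a (22.4) were also present in CA3 PNs. Ctxnd1 (8.33 CPM), Cpne8 (1.67), Ptpru (1.67), Ankrd63 (0.482) and Lefty1 (0) had medians under 10 CPM there.

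On the side of the DGCs, Stxbp6, which encodes the SNARE-binding protein amisyn, ran from 0 to 2.92 CPM (median 0.366) in CA1 PNs and from 359.6 to 472 CPM (median 407) in DGCs (LFC -8.74 ± 0.27, adjusted p = 1.17e-24). C1ql2, a secreted organizer of mossy fiber synapses, ran from 0 to 2.12 CPM (median 0.854) and from 94.0 to 236 CPM (median 193) (LFC -7.49 ± 0.28). Igfbp5, an insulin-like growth factor binding protein, ran from 0 to 9.02 CPM (median 2.97) and from 213 to 394 CPM (median 249.5) (LFC -6.41 ± 0.30). Acvr1c, an activin receptor, ran from 0 to 2.35 CPM (median 1.42) and from 83.7 to 128 CPM (median 111) (LFC -6.38 ± 0.30). No value in CA1 PNs reached those of DGCs for these genes. Plk5 of the polo-like kinase family and the homeodomain factor Onecut1 were at 0 in all CA1 PN libraries and at least 137- and 82.9-fold higher in DGCs, where their medians were 68.3 and 36.0 CPM. Grm2, the presynaptic metabotropic glutamate receptor mGlu2, had 3 counts in CA1 PNs and ran from 179.9 to 211 CPM (median 188) in DGCs, a ratio of 375 with a 95% counting interval of 128 to 1822. The remaining genes of this set, Pcsk5 (a proprotein convertase), Rprm (a target of p53) and Vwa3a, had 1 or 2 counts over the CA1 PN libraries and medians of 60.8, 26.3 and 39.9 CPM in DGCs. Of the 12 genes, Acvr1c (43.9 CPM) and Pcsk5 (41.8 CPM) had medians over 10 CPM in CA3 PNs and the others did not.

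**Figure D3:**
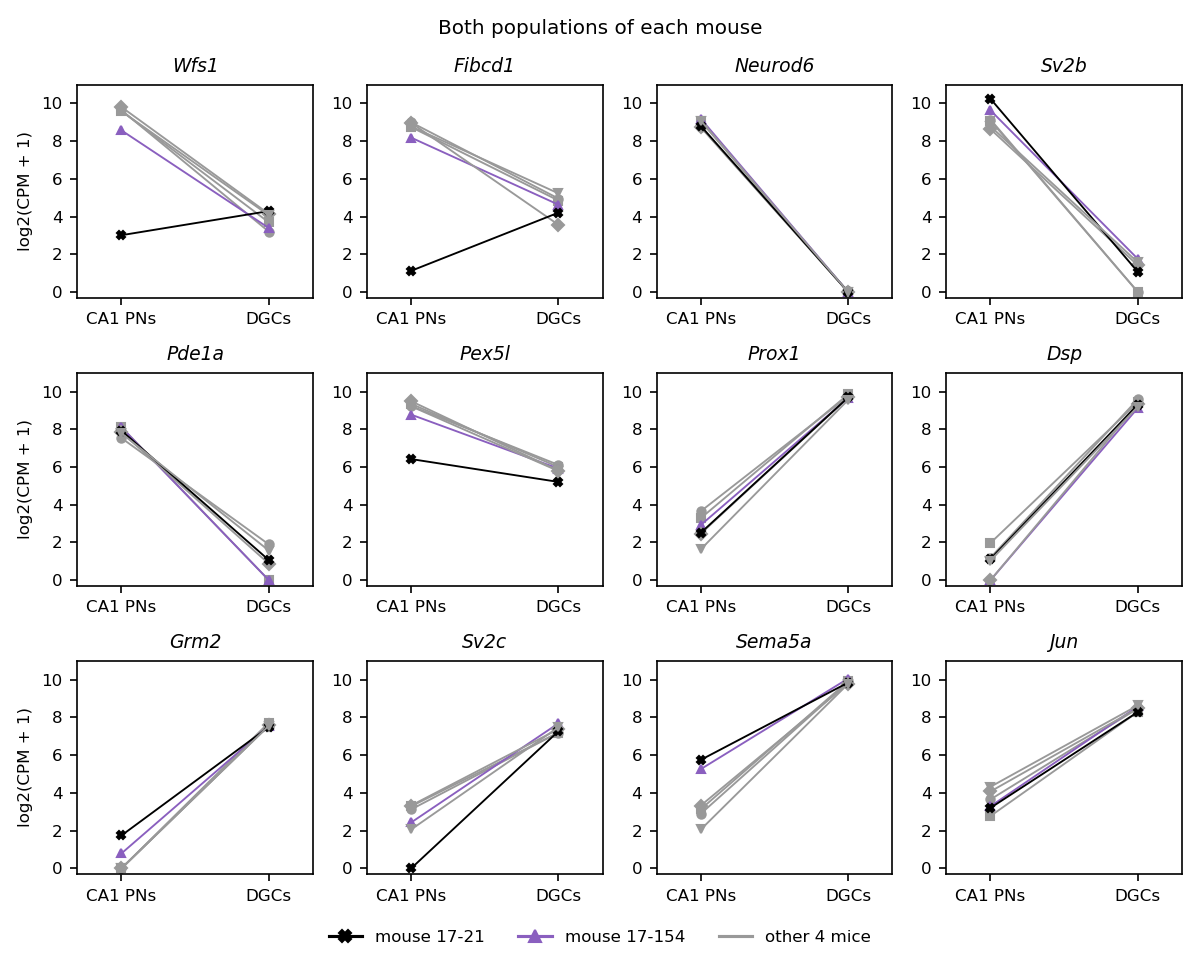
log2(CPM + 1) of 12 genes in CA1 PNs and DGCs, with a line for each mouse, black for mouse 17-21, purple for mouse 17-154 and grey for the other 4. Wfs1 and Fibcd1 fall in mouse 17-21 (to 7.05 and 1.18 CPM in CA1 PNs), while Neurod6, Sv2b, Pde1a and Pex5l are higher and Prox1, Dsp, Grm2, Sv2c, Sema5a and Jun lower in CA1 PNs in all 6 mice.

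A small set of called genes had no count in 1 population and a mean over 10 CPM in the other. This set held 12 genes found in CA1 PNs and 10 found in DGCs. In CA1 PNs it held, beside the genes already named, the ligand Wnt2 (median 15.6 CPM), the cytokine Il34 (9.83), Stac (16.2), the serotonin receptor Htr1f (10.4) and the sulfotransferase Chst8 (22.6). In DGCs it held the tryptophan-degrading enzyme Tdo2 (median 15.2 CPM), the desmosomal cadherin Dsg2 (15.0), the collagen Col6a1 (8.72) and the kinase Mylk3 (12.2). It also held the phospholipase Pla2g2f (10.7), the protease Htra4, the cytokine receptor subunit Il20rb (12.1) and Or13a25 (12.2). In the supplemented mice Pla2g2f had a DGC median of 0.826 CPM and was not tested. A count of 0 was also listed for genes that every cell uses, since 5 of 13 mitochondrially encoded subunits (mt-Nd3, mt-Co2, mt-Co3, mt-Atp6 and mt-Atp8) were at 0 in all 12 libraries, so a gene at 0 is described here as listed at 0.

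The genes were then read by role in 23 lists, which held 732 distinct genes. Of these 680 were tested, 245 were higher and 151 were lower in CA1 PNs, against 16.1% and 15.3% of all genes tested.

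Of 30 transcription factors that mark hippocampal subfields or act in their development, 13 were higher and 9 lower in CA1 PNs (14 and 9 with 4 mice), with a median LFC of 0.41. Those higher in CA1 PNs beside Neurod6 held the POU factor Pou3f1 (median 184 CPM, 6.33 in DGCs), Meis2 (42.1 and 0), Fezf2 (14.7 and 0.811) and Foxp1 (265 and 67.6, LFC 1.79 ± 0.16). Pou3f1 was at 0 in the library labelled CA1 of mouse 17-21, and its groups overlapped. Those lower in CA1 PNs held, beside Prox1, the zinc finger factor Glis3 (1.17 and 99.3 CPM, LFC -6.23 ± 0.29), Rfx3 (86.5 and 684, LFC -2.79 ± 0.18), Mef2c (68.4 and 381, LFC -2.44 ± 0.14) and Neurod1 (15.2 and 61.6, LFC -1.96 ± 0.22). The NeuroD family thus went in both directions, with Neurod1 and Neurod2 (LFC -0.58 ± 0.12) lower and Neurod6 higher in CA1 PNs. Bcl11b had an LFC of 0.23 ± 0.12 and did not pass the test with 6 mice.

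The ionotropic glutamate receptors carry fast excitation at both populations. Of 20 genes for AMPA receptors and their auxiliary subunits, 8 were higher and 6 lower in CA1 PNs (10 and 8 with 4 mice). Gria1 had an LFC of 0.46 ± 0.11, Gria3 of 0.58 ± 0.12 and Gria4 of 0.92 ± 0.21, and Gria2, at 1832 and 1583 CPM at the median, had an LFC of 0.06 ± 0.11 and did not pass. Among auxiliary subunits, Cnih3 ran from 1.18 to 10.3 CPM (median 5.61) in CA1 PNs and from 91.3 to 132 CPM (median 97.8) in DGCs (LFC -4.21 ± 0.23), whereas its relative Cnih2 was higher in CA1 PNs (LFC 0.63 ± 0.15). Shisa9, also known as CKAMP44, ran from 9.52 to 54.1 CPM (median 11.5) and from 132 to 183 CPM (median 160.1) (LFC -3.13 ± 0.29), and its relatives Shisa6 (LFC 1.29 ± 0.12) and Shisa7 (LFC 0.82 ± 0.13) were higher in CA1 PNs. Gsg1l was lower (LFC -2.18 ± 0.21) and the stargazin relative Cacng8 higher (LFC 1.07 ± 0.14). The secreted pentraxins that cluster AMPA receptors were also divided, with Nptx1 at 349 and 1036 CPM (LFC -1.89 ± 0.34) and Nptx2 at 59.0 and 13.7 CPM (LFC 2.04 ± 0.34).

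Of 6 NMDA receptor genes tested, 3 were higher in CA1 PNs and none was lower, also with 4 mice. These were Grin1 (1147 and 572 CPM, LFC 0.99 ± 0.11), Grin2b (2628 and 1624 CPM, LFC 0.75 ± 0.11) and Grin2a (2021 and 1224 CPM, LFC 0.58 ± 0.13), which encode the common subunit and its main partners. Of 7 kainate receptor genes, 3 were lower in CA1 PNs and 1 was higher (4 and 1 with 4 mice). Grik3 ran from 3.90 to 15.3 CPM (median 11.1) in CA1 PNs and from 111 to 131 CPM (median 114) in DGCs (LFC -3.41 ± 0.20), and Grik2 had an LFC of -1.87 ± 0.14. The auxiliary subunits Neto1 and Neto2 went in opposite directions, Neto1 with 30.7 and 141 CPM (LFC -2.01 ± 0.25) and Neto2 with 91.7 and 7.77 CPM (LFC 3.34 ± 0.22). Grik4 had an LFC of -1.32 ± 0.99 that did not pass with 6 mice (CA1 PN values from 0 to 84.7 CPM (median 2.75)), and of -4.27 ± 0.40, which passed, with 4 mice.

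Of 10 genes for metabotropic glutamate receptors and their Homer scaffolds, 4 were higher and 4 lower in CA1 PNs (4 and 3 with 4 mice). Grm2 was described above. Grm5, a receptor that couples to calcium release, was higher in CA1 PNs (626 and 419.5 CPM, LFC 0.56 ± 0.11). Homer1 (452 and 94.4 CPM, LFC 1.94 ± 0.26) and Homer2 (209 and 36.4 CPM, LFC 2.52 ± 0.15) were higher in CA1 PNs. Of 16 GABA receptor and anchoring genes tested, 5 were higher and 3 lower (5 and 4 with 4 mice), against 16.1% and 15.3% of all genes. Their median LFC was 0.06. Gabrd, the delta subunit of extrasynaptic receptors, ran from 2.93 to 10.6 CPM (median 6.94) in CA1 PNs and from 36.4 to 55.7 CPM (median 46.6) in DGCs (LFC -2.71 ± 0.25), and its partner Gabra4 was lower too (LFC -0.95 ± 0.13). Gabra5, the alpha subunit of extrasynaptic receptors of CA1, had 281 and 161 CPM (LFC 0.82 ± 0.12), and Gabra3 ran from 7.05 to 55.5 CPM (median 30.4) in CA1 PNs and from 0 to 1.58 CPM (median 1.21) in DGCs (LFC 4.61 ± 0.42). The beta subunits Gabrb1 and Gabrb2 had LFCs of 0.01 and 0.03 and did not pass.

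HCN channels carry the hyperpolarization-activated current of pyramidal cell dendrites. Their list, which includes the gene of a trafficking subunit, Pex5l, had the highest median LFC of the lists with 6 mice (3.05). In it 4 of 5 were higher and none lower (3 higher with 4 mice). The median was the LFC of Pex5l itself. It was 2.45 with 4 mice, and 1.92 over the 4 members tested in the supplemented mice, where that of immediate early genes was 1.85. Pex5l, which encodes the HCN trafficking subunit TRIP8b, ran from 84.7 to 718 CPM (median 597) in CA1 PNs and from 36.0 to 68.1 CPM (median 57.1) in DGCs (LFC 3.05 ± 0.33, adjusted p = 0.000816), and Hcn2 had 78.5 and 28.2 CPM (LFC 1.37 ± 0.18). The values of Pex5l did not overlap between the populations. Of 58 potassium channel genes tested, 17 were higher and 19 lower in CA1 PNs (18 and 23 with 4 mice), against 16.1% and 15.3% of all genes. Their median LFC was -0.22. Those higher held Kcnq5 of the M-current family (89.8 and 3.68 CPM, LFC 4.93 ± 0.23), the sodium-activated Kcnt1 (37.8 and 0.331 CPM, LFC 5.27 ± 0.39), Kcnh7 (486 and 23.1 CPM, LFC 3.92 ± 0.78), the small-conductance channel Kcnn2 (119 and 25.2 CPM, LFC 2.23 ± 0.17) and Kcnd2, the main A-type channel of dendrites (418 and 228 CPM, LFC 0.81 ± 0.12). Those lower held Kcnc4 (from 0 to 2.27 CPM (median 0.644) in CA1 PNs and from 62.4 to 112 CPM (median 99.8) in DGCs, LFC -6.34 ± 0.33), the modifier subunit Kcng1 (2.23 and 75.3 CPM, LFC -4.44 ± 0.30), Kcnd3 (17.0 and 172 CPM, LFC -2.65 ± 0.45) and Kcna1 (72.5 and 219 CPM, LFC -1.27 ± 0.34). Members of 1 subfamily went in opposite directions in 3 cases here, namely Kcnd2 and Kcnd3, Kcnc2 (LFC 3.10 ± 0.29) and Kcnc4, and Kcnn2 and Kcnn3 (LFC -1.76 ± 0.28).

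The sodium and calcium channel list had 27 members tested, with 13 higher and 7 lower in CA1 PNs (15 and 8 with 4 mice). The sodium channel beta subunit Scn4b ran from 22.3 to 84.8 CPM (median 67.0) in CA1 PNs and from 1.58 to 5.45 CPM (median 3.32) in DGCs (LFC 4.18 ± 0.27), and Scn1a (162 and 82.0 CPM, LFC 1.11 ± 0.14) was higher, while Scn3a (73.6 and 254 CPM, LFC -1.91 ± 0.25) was lower. The L-type calcium channels Cacna1c (93.2 and 413 CPM, LFC -1.83 ± 0.34) and Cacna1d (LFC -0.83 ± 0.14) and the T-type channel Cacna1h (132 and 347 CPM, LFC -1.38 ± 0.13) were lower in CA1 PNs. The presynaptic channels Cacna1a (LFC 0.59 ± 0.13) and Cacna1b (LFC 0.55 ± 0.13) and the subunit Cacna2d3 (181 and 53.2 CPM, LFC 2.09 ± 0.34) were higher.

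**Figure D4:**
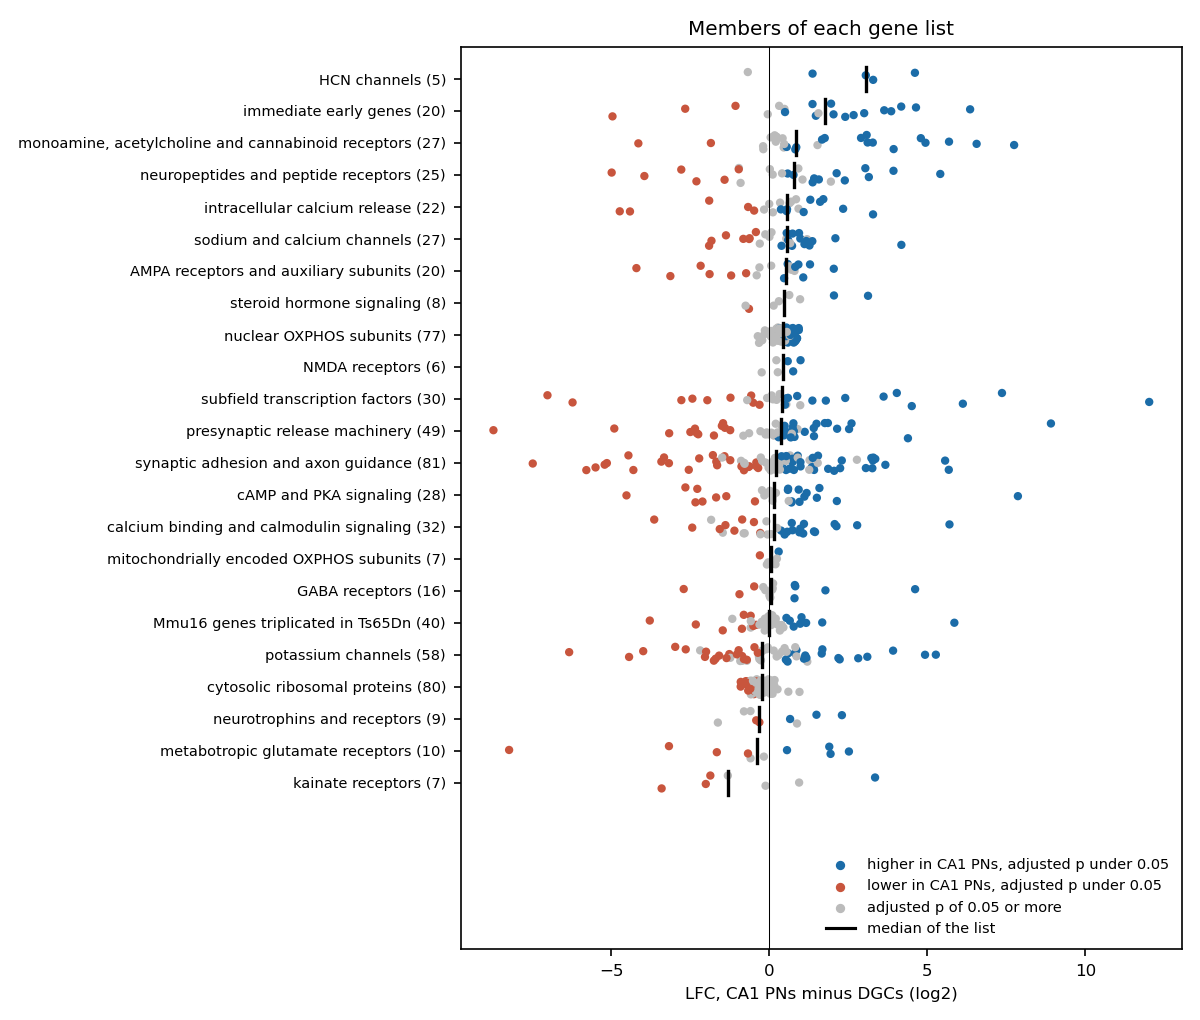
LFC of every tested member of the 23 gene lists (log2, CA1 PNs minus DGCs), 1 row per list ordered by its median (black bar), with the number tested in brackets and members of adjusted p under 0.05 in blue (higher in CA1 PNs) or red (lower). HCN channels (median 3.05) and immediate early genes (median 1.75) lie farthest to the right and kainate receptors (median -1.32) farthest to the left, and most lists have members on both sides.

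Calcium handling differed in both directions as well. Of 32 calcium-binding and calmodulin signaling genes tested, 15 were higher and 8 lower in CA1 PNs (15 and 12 with 4 mice). Within the family of neuronal calcium sensors, Hpca (hippocalcin) ran from 2044 to 4942 CPM (median 2539) in CA1 PNs and from 587 to 786 CPM (median 641) in DGCs (LFC 2.12 ± 0.11) and Vsnl1 had 442 and 108 CPM (LFC 2.07 ± 0.13), whereas Ncald (neurocalcin delta) ran from 17.0 to 607 CPM (median 29.1) and from 721 to 902 CPM (median 812) (LFC -3.65 ± 0.92). Among kinases, Camk4 (88.6 and 17.2 CPM, LFC 2.78 ± 0.26) was higher and Camkk1 (155 and 308 CPM, LFC -1.11 ± 0.21) lower, and the LFC of Camk2a (-0.06 ± 0.11) did not pass. Camk2n1, an inhibitor of the CaMKII kinases, had 134 and 375 CPM (LFC -1.39 ± 0.12). Genes of calmodulin, whose reads can be shared with processed pseudogenes, had LFCs of 1.44 ± 0.11 for Calm2 and 0.57 ± 0.11 for Calm3. Calb1, the calbindin of granule cells, had 102 and 205 CPM and an LFC of -1.48 ± 0.57 that did not pass with 6 mice, and of -1.05 ± 0.12, which passed, with 4 mice. Of 22 genes for calcium release and extrusion, 9 were higher and 5 lower (11 and 6 with 4 mice). The ryanodine receptors were divided, with Ryr1 (19.9 and 82.9 CPM, LFC -1.91 ± 0.21) and Ryr2 (1117 and 1585 CPM, LFC -0.48 ± 0.11) lower and Ryr3 (516 and 139 CPM, LFC 1.71 ± 0.17) higher in CA1 PNs. The plasma membrane calcium pumps were divided too, with Atp2b1 (3950.2 and 1092 CPM, LFC 1.61 ± 0.34) higher and Atp2b4 (4.20 and 82.6 CPM, LFC -4.41 ± 0.24) lower. Trpc6, a channel of the dentate marker list, was lower in CA1 PNs (LFC -4.74 ± 0.25) and Trpc5 higher (88.6 and 37.8 CPM).

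Of 28 genes of cAMP and protein kinase A signaling, 12 were higher and 8 lower in CA1 PNs (12 and 8 with 4 mice). The phosphodiesterases Pde1a and Pde1b, both activated by calcium and calmodulin, went in opposite directions, Pde1b with 55.6 and 259 CPM (LFC -2.12 ± 0.14). Pde7b ran from 1.06 to 7.05 CPM (median 2.56) in CA1 PNs and from 62.7 to 85.3 CPM (median 67.8) in DGCs (LFC -4.52 ± 0.27), while Pde4d (81.3 and 22.1 CPM, LFC 2.14 ± 0.18) and Pde2a (297 and 97.2 CPM, LFC 1.58 ± 0.13) were higher in CA1 PNs. Adcy1, a cyclase stimulated by calcium, had 933 and 2835 CPM (LFC -1.36 ± 0.27), Adcy9 had 344 and 181 CPM (LFC 0.95 ± 0.12), and Gnal, a stimulatory G protein alpha subunit, had 42.6 and 249.6 CPM (LFC -2.66 ± 0.15). Of the regulatory subunits of protein kinase A, Prkar1b was higher (LFC 1.11 ± 0.12) and Prkar2b lower (LFC -2.28 ± 0.21) in CA1 PNs, and the catalytic subunit Prkacb was lower (LFC -1.69 ± 0.13).

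Of 49 presynaptic genes tested, 21 were higher and 12 lower in CA1 PNs (21 and 14 with 4 mice), with a median LFC of 0.38. The SV2 family was divided between Sv2b, given above, and Sv2c, which ran from 0 to 9.07 CPM (median 6.07) in CA1 PNs and from 146 to 206 CPM (median 159.9) in DGCs (LFC -4.91 ± 0.30), while Sv2a, with 214 and 200.3 CPM, had an LFC of 0.20 ± 0.13 that did not pass. Per transcript length, the median level of Sv2a was 47.0 TPM in CA1 PNs and 52.5 in DGCs, that of Sv2b 98.2 and 0.400, and that of Sv2c 0.560 and 25.5. The complexins, which clamp and trigger vesicle fusion, exchanged rank, since Cplx1 had 200.4 and 53.1 TPM and Cplx2 85.9 and 345 TPM, with LFCs of 1.49 ± 0.25 and -1.50 ± 0.22. Among synaptotagmins, the release sensor Syt1 (1593 and 795 CPM, LFC 1.12 ± 0.11), Syt4 (LFC 1.40 ± 0.14) and Syt12 (LFC 2.60 ± 0.41) were higher in CA1 PNs, and Syt7 (297 and 662 CPM, LFC -1.24 ± 0.12), Syt10 (5.86 and 28.6 CPM) and Syt17 (LFC -2.30 ± 0.25) were lower. The Rab3 effector Rph3a had 29.6 and 402 CPM (LFC -3.17 ± 0.42), and Rab3c had 528 and 92.4 CPM (LFC 2.52 ± 0.13). Slc30a3, the vesicular zinc transporter that loads mossy fiber vesicles, had 33.7 and 90.3 CPM (LFC -1.76 ± 0.47). The glutamate transporter Slc17a7 had 899.8 and 628 CPM (LFC 0.68 ± 0.12).

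Of 81 genes of synaptic adhesion and axon guidance tested, 29 were higher and 25 lower in CA1 PNs (31 and 28 of 82 with 4 mice), against 16.1% and 15.3% of all genes. Sema5a, a transmembrane semaphorin, ran from 3.17 to 52.9 CPM (median 8.43) in CA1 PNs and from 880.4 to 1069.5 CPM (median 932) in DGCs (LFC -5.80 ± 0.57), while the secreted Sema3e ran from 52.9 to 362 CPM (median 247) and from 2.18 to 10.8 CPM (median 3.96) (LFC 5.56 ± 0.21), and its receptor Plxnd1 had 45.7 and 3.24 CPM (LFC 3.35 ± 0.30). The postsynaptic organizers Lrrtm4 (5.01 and 274 CPM, LFC -4.46 ± 0.66) and Lrrtm3 (LFC -3.42 ± 0.31) were lower in CA1 PNs, and Lrrtm1 had an LFC of 0.43 ± 0.15. C1ql3, a relative of C1ql2, had 50.7 and 408 CPM (LFC -3.34 ± 0.59), and the GPI-anchored netrin-G1, Ntng1, had 1.87 and 144 CPM (LFC -5.50 ± 0.29). Kirrel3, an adhesion molecule of mossy fiber synapses, had 2.11 and 71.2 CPM (LFC -5.22 ± 0.28), and the type II cadherins were divided between Cdh9 in DGCs (4.85 and 100 CPM, LFC -4.31 ± 0.23) and Cdh10 in CA1 PNs (91.9 and 9.05 CPM, LFC 3.29 ± 0.35). Among the latrophilins, Adgrl2 ran from 4.70 to 130.4 CPM (median 56.3) in CA1 PNs and from 0 to 1.98 CPM (median 1.17) in DGCs (LFC 5.68 ± 0.35), and Adgrl1 had an LFC of 0.04 ± 0.12 that did not pass. Teneurins, their ligands, were higher in CA1 PNs for Tenm4 (182 and 15.1 CPM, LFC 3.26 ± 0.19), lower for Tenm1 (LFC -1.42 ± 0.19), and for Tenm3, at 791 and 87.0 CPM, the LFC of 2.77 ± 0.89 did not pass with 6 mice and passed with 4 (LFC 3.35 ± 0.11). Of the presynaptic neurexins, Nrxn3 (511 and 121 CPM, LFC 2.24 ± 0.12) was higher while Nrxn2 (LFC 0.20 ± 0.24) did not pass. Plxna1 had 380.1 and 39.6 CPM (LFC 3.23 ± 0.14) and Cntnap2 had 286 and 19.7 CPM (LFC 3.67 ± 0.26).

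Of 37 receptors for modulatory transmitters listed, 27 were tested. Of these 15 were higher and 2 lower in CA1 PNs (16 and 2 of 30 with 4 mice), with a median LFC of 0.85. The shares over all genes tested were 16.1% and 15.3%. A receptor at 0 in all DGC libraries, such as Htr1f, could enter the test through its CA1 PN counts alone. The serotonin receptor Htr1a ran from 0 to 166 CPM (median 131) in CA1 PNs and from 8.17 to 19.8 CPM (median 9.34) in DGCs (LFC 3.11 ± 0.68). Htr1b stood at a median of 64.9 CPM in CA1 PNs and was at 0 in all DGC libraries and in the library labelled CA1 of mouse 17-21, so that too few libraries passed the filter for a test with 6 mice. Htr2a, with a median of 20.8 CPM in CA1 PNs and 0 in DGCs, was higher too, and Htr4 was lower (14.2 and 55.3 CPM, LFC -1.85 ± 0.22). Of muscarinic receptors, Chrm3 and Chrm4 (15.6 and 0 CPM, LFC 3.93 ± 0.56) were higher in CA1 PNs and Chrm1 (422 and 376 CPM, LFC 0.20 ± 0.11) did not pass. The nicotinic subunit Chrna4 had 25.1 and 2.24 CPM (LFC 3.27 ± 0.40), and the cannabinoid receptor Cnr1, which inhibitory neurons also express, had 150.5 and 49.0 CPM (LFC 1.75 ± 0.30). The dopamine receptor Drd1 had medians of 0.366 CPM in CA1 PNs and 12.4 CPM in DGCs and was lower in CA1 PNs.

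Of 25 neuropeptide and peptide receptor genes tested, 11 were higher and 6 lower (11 and 7 of 24 with 4 mice). The higher genes included Sst, which is also in the inhibitory neuron list (medians of 6.08 and 0 CPM). Pdyn, which encodes the dynorphin precursor of mossy fibers, ran from 0 to 3.17 CPM (median 1.13) in CA1 PNs and from 29.1 to 55.6 CPM (median 42.1) in DGCs (LFC -4.99 ± 0.37), and Cck, the cholecystokinin precursor, ran from 354 to 516 CPM (median 413) and from 26.6 to 68.1 CPM (median 45.9) (LFC 3.15 ± 0.16). Sstr4 (127 and 5.57 CPM, LFC 3.93 ± 0.28) and the secreted peptide precursor Vgf (106 and 13.4 CPM, LFC 3.04 ± 0.18) were higher in CA1 PNs, and the receptors Npy1r (16.8 and 81.2 CPM, LFC -2.31 ± 0.19) and Adcyap1r1 (23.0 and 148 CPM, LFC -2.79 ± 0.19) were lower. Of 9 neurotrophin genes tested, 3 were higher and 2 lower (3 and 3 with 4 mice). The receptor Ntrk2 had 627 and 223 CPM (LFC 1.49 ± 0.12), its ligand Bdnf had 55.0 and 72.2 CPM (LFC -0.42 ± 0.16, which did not pass with 4 mice), and Sorcs3 had 164 and 24.4 CPM (LFC 2.30 ± 0.56). Of 8 steroid signaling genes tested, 2 were higher and 1 lower (4 and 2 with 4 mice), and the glucocorticoid receptor Nr3c1 (LFC 0.14 ± 0.35) did not pass with 6 mice.

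Immediate early genes, which neurons switch on after activity, had 13 of 20 higher and 3 lower in CA1 PNs (15 and 3 with 4 mice), and a median LFC of 1.75. Egr1 ran from 154 to 891 CPM (median 489.9) in CA1 PNs and from 19.2 to 32.4 CPM (median 26.4) in DGCs (LFC 4.17 ± 0.37), and Arc ran from 153 to 521 CPM (median 242) and from 21.7 to 61.3 CPM (median 30.3) (LFC 3.00 ± 0.36). The orphan receptors Nr4a1 (155 and 6.55 CPM, LFC 4.64 ± 0.21), Nr4a2 (LFC 2.40 ± 0.57) and Nr4a3 (LFC 3.86 ± 0.16) were higher, as was the phosphatase Dusp6 (136 and 1.21 CPM, LFC 6.35 ± 0.27). Fos had 22.6 and 8.05 CPM (LFC 1.47 ± 0.32) and Junb 67.3 and 26.4 CPM (LFC 1.37 ± 0.19). Jun went the other way, from 5.85 to 19.0 CPM (median 10.2) in CA1 PNs and from 312 to 398 CPM (median 357) in DGCs (LFC -4.97 ± 0.17), without overlap between the groups, and Btg2 (LFC -2.67 ± 0.31) and Fosl2 (LFC -1.07 ± 0.20) were lower with it. The values of Egr1, Arc and Jun did not overlap between the populations in any mouse.

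Energy metabolism and protein synthesis showed smaller differences spread over many genes. Of 77 nuclear genes for subunits of oxidative phosphorylation (OXPHOS), 39 were higher in CA1 PNs and none was lower, against 16.1% and 15.3% of all genes. The median LFC was 0.44, with a range from -0.37 to 0.93. With 4 mice 25 were higher and none lower, and with library totals in place of TMM 22 were higher and none lower. Ndufa11, a subunit of complex I, had 36.8 and 19.8 CPM (LFC 0.93 ± 0.21). Of 7 mitochondrially encoded subunits tested, mt-Nd2 was higher (LFC 0.29 ± 0.11), mt-Cytb was lower (LFC -0.30 ± 0.12) and 5 did not pass. Without the mouse as a block neither of the first 2 passed, and with 4 mice none was higher and mt-Cytb and mt-Co1 were lower (median LFC of the list -0.17). Of 80 cytosolic ribosomal protein genes, none was higher and 19 were lower in CA1 PNs, against 16.1% and 15.3% of all genes. Their median LFC was -0.23. With 4 mice 3 were higher and 16 lower, and with library totals 36 were lower, so this count depends on the scaling. Rpl22 had 34.0 and 64.3 CPM (LFC -0.91 ± 0.18). Reads of ribosomal protein genes can match processed pseudogenes, between which RSEM divides them.

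The genes that are triplicated in Ts mice were compared in their disomic state. Of 40 tested, 9 were higher and 8 lower in CA1 PNs (6 and 11 with 4 mice). The shares over all genes tested were 16.1% and 15.3% (14.8% and 14.9% with 4 mice), and the median LFC of the list was -0.02. The 6 mice include 17-154, in whose CA1 library these genes stood at the level of Ts libraries. App, the amyloid precursor protein gene, ran from 1953 to 3336 CPM (median 2088) in CA1 PNs and from 615 to 779 CPM (median 728) in DGCs (LFC 1.67 ± 0.11, and 1.49 ± 0.08 with 4 mice). The kinase Hunk ran from 157 to 286 CPM (median 195) and from 0 to 9.53 CPM (median 2.80) (LFC 5.86 ± 0.55, and 5.85 ± 0.24 with 4 mice), and Synj1, a phosphatase of vesicle recycling, had 766 and 373 CPM (LFC 1.16 ± 0.12 with 6 mice). The CA1 library of mouse 17-154 was highest for Synj1, with a gap of 0.823 of the CA1 PN range in log2 CPM, and is part of that LFC. Tiam1, an activator of the GTPase RAC1, ran from 28.4 to 81.1 CPM (median 41.3) and from 634 to 689 CPM (median 667) (LFC -3.79 ± 0.20, and -4.22 ± 0.13 with 4 mice). The kinase Dyrk1a had 129 and 168 CPM (LFC -0.42 ± 0.14) and the scaffold Itsn1 156 and 313 CPM (LFC -0.81 ± 0.14). Without mouse 15-145, whose labels give both genotypes, Dyrk1a did not pass the same quasi-likelihood test (adjusted p = 0.165).

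Leaving out mice 17-21 and 17-154 changed some genes strongly. Among genes over 20 CPM, Cpne4, Cacng5, Fhip1a, Ntf3 and Acan had the largest drop in LFC. Cpne4, a copine, moved from an LFC of -1.47 ± 1.48 to -5.80 ± 0.34, Cacng5 from 0.80 ± 1.25 to -2.93 ± 0.70, Fhip1a from -1.79 ± 0.93 to -5.48 ± 0.54, and Acan, the aggrecan of perineuronal nets, from 0.20 ± 1.17 to -3.39 ± 0.63. The neurotrophin Ntf3 stood at -5.25 ± 0.57 with 4 mice. None of these 5 passed with 6 mice and all 5 were lower in CA1 PNs with 4 mice. Their highest CA1 PN values were 470.3, 159.9, 45.9, 44.7 and 112 CPM, against medians of 2.80, 2.15, 1.10, 1.06 and 2.12 CPM. In the 4 mice these genes had from 2 to 5 counts each over all CA1 PN libraries, so their LFCs with 4 mice are not exact sizes. In the other direction the 5S ribosomal RNA genes n-R5s2 and n-R5s33, Ccn3, 4921539H07Rik and Plekhg1 had the largest rise in LFC. Plekhg1 ran from 2.35 to 151 CPM (median 124) in CA1 PNs and from 0 to 3.27 CPM (median 1.10) in DGCs, and its LFC was 6.07 ± 0.78 with 6 and 7.85 ± 0.34 with 4 mice. For Ccn3, a secreted matricellular protein, the CA1 PN values ran from 4.70 to 96.2 CPM (median 76.4), and DGCs held 2 counts in all.

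The same contrast was made in the 7 2N mice of supplemented dams, which share no sample with the 6 mice. There 2482 of 14777 genes were higher in CA1 PNs (16.8%) and 2231 were lower (15.1%). Of the 2471 genes higher on the normal diet, 1926 were also called higher in the supplemented mice, which is 77.9% of the first list and 77.6% of the second, and of the 2358 lower genes 1688 were also called lower, which is 71.6% and 75.7%. No gene was called in opposite directions. Of the called genes that were tested in both sets, 99.1% of the higher and 98.6% of the lower had the same sign. The LFCs in the supplemented mice were 4.89 ± 0.32 for Wfs1, 3.41 ± 0.47 for Fibcd1, -7.37 ± 0.21 for Prox1, 3.03 ± 0.15 for Pex5l, -5.01 ± 0.14 for Jun, 4.21 ± 0.28 for Egr1 and -5.15 ± 0.22 for Sv2c. When the difference in LFC between the diets was tested itself in 1 model of all 13 mice, no gene of 17845 passed (0%), with 484 at an unadjusted p under 0.05. DESeq2 also called no gene, with 186 at an unadjusted p under 0.05. The smallest adjusted p was 0.485, for Gm44230. The CA2 markers were high in 3 of the 7 supplemented CA1 PN libraries too (mice 15-334, 15-336 and 16-90, 649 to 2043 CPM, against 95.7 to 142 CPM in the other 4). The contrast without these 3 mice called 2100 genes higher and 1898 lower. The test of the diets gave 20 genes without mice 17-21 and 17-154, and 9 genes without all 5 mice, and 2 genes passed both times.

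**Figure D5:**
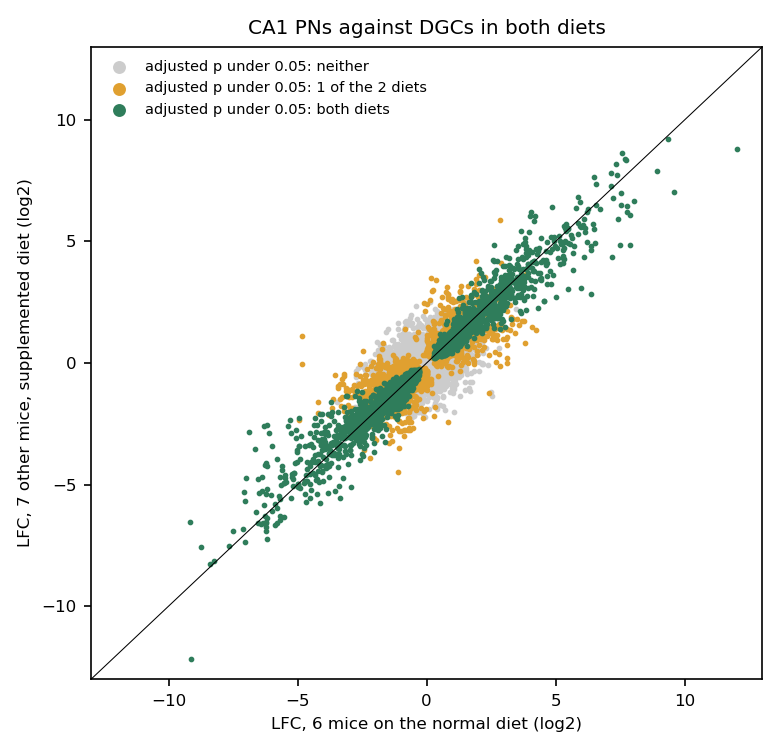
LFC of each gene (log2, CA1 PNs minus DGCs) in the 6 mice on the normal diet (horizontal axis) and in the 7 other mice on the supplemented diet (vertical axis), green where adjusted p was under 0.05 in both, orange in 1 of them and grey in neither, with the line of equal values. No green point lies in a quadrant of opposite signs, with 1926 genes higher and 1688 lower in CA1 PNs in both sets.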

How the data were processed

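RNA was sequenced from CA1 PNs and DGCs of 6 2N mice on the normal diet. Libraries were made with a stranded total RNA kit for picogram inputs. The authors aligned reads to GRCm39 with STAR, after Trimmomatic 0.39 only where trimming was needed, and estimated counts with RSEM. The labels name both GRCm39 and mm10. The deposited matrices hold expected counts, which are RSEM estimates without normalization, and the deposited files per library also hold TPM. In these 12 libraries 2.87% of the expected counts above 0 were not whole numbers, and the matrices equalled the files of these libraries.

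Expected counts were rounded. Genes over 0.1 CPM in at least 6 libraries entered edgeR's quasi-likelihood test (version 4.0.16 in R 4.3.3, TMM scaling, robust glmQLFit, two-sided glmQLFTest) with the mouse as a block, and p was adjusted by Benjamini-Hochberg over all genes tested (threshold 0.05). DESeq2 and limma-voom were alternatives. The standard error of an LFC is its size divided by the square root of the F statistic. In the fits with 4 mice, without mouse 17-21 and with no filter the median prior degrees of freedom were infinite, so that the spread of most genes was set by all genes together and errors and p there do not show that gene's own spread. The test was tried on simulated counts with known changes. Log2 CPM used a prior count of 2.

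CA1 and DG libraries with the same mouse number come from the same animal by their labels. Residuals of the 6 pairs correlated at -0.0313 to 0.104 over 7041 genes (median 0.0734, and 0.00608 between different mice), a description across genes. The CA1 libraries of mice 15-147, 17-154 and 17-172 correlated more with the DG library of another mouse than with their own. The highest such values were 0.131, 0.0480 and 0.124, against 0.0745, -0.0313 and 0.0729 for their own pairs.

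The matrices list 57010 identifiers, and 56310 were given a symbol by the GENCODE annotation. Total expected counts were 696340 to 1486710, at which 0.1 CPM is 0.0696 to 0.149 of a count. A gene at 0 in a population was given a floor of 3 counts over its 6 libraries, and ratios with 1 to 3 counts have exact 95% binomial intervals, which cover counting error only. The authors' methods state that 1 2N sample of CA1 PNs failed library preparation and that the populations of that mouse were captured again from adjacent sections. Which mouse it was is not given in the sources used here.

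The genes named are the markers Wfs1, Fibcd1, Prox1 and Dsp and members of the marker lists, the 12 protein-coding genes in each direction with the largest LFC (adjusted p under 0.05, over 20 CPM in the higher population, same direction in 6 mice), members of gene lists with the counts of their list, up to 5 genes in each direction whose LFC changed most without mice 17-21 and 17-154, and up to 5 genes of smallest adjusted p in the diet interaction. Genes at 0 in 1 population and over 10 CPM in the other, and the noncoding genes in the closing section, were chosen after their values were seen, as were the alternatives for list counts and those without mice 15-334, 15-336 and 16-90. Some members of the lists are counted but not reported here by name. The comparison, gene lists and alternatives were chosen with earlier results of these data known.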

Additional observations from a re-analysis of the deposited data

Results flagged for a closer look

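In 363 groups of 6 libraries (marker lists and named genes, in log2 CPM), the library at 1 end of the group was checked for a gap to its neighbour that was a larger part of the group's whole range than Dixon's 95% critical value for 6 values allows. Chance gives such a gap in about 1 group in 20, and here 62 groups or 17.1% had one. The library labelled CA1 of mouse 17-21 was the one standing apart in most of them.

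Among marker sums in CA1 PNs, that library was lowest for the CA1 PN list (ratio of gap to range 0.791), the dentate list (0.628) and the choroid plexus list, in which Kl alone had counts (0.788), and highest for the astrocyte list (0.703). The choroid plexus sum in DGCs was highest in mouse 15-145 (0.725). Among markers and genes of large fold change, the library labelled CA1 of mouse 17-21 was lowest for Wfs1 (0.813), Fibcd1 (0.889), Pou3f1 (0.868), Bcl11b (0.670), Cpne8 (0.812), Ctxnd1 (0.650), Ptpru (0.654), Plekhg1 (0.810), Stac (0.642) and the dentate marker Lct (0.809). Among receptors and their partners it was lowest for Gria1 (0.687), Gria2 (0.789), Shisa7 (0.751), Nptx1 (0.887), Grin2a (0.681), Neto2 (0.666), Chrm3 (0.676), Htr1a (0.874), Htr1b (0.903), Sstr4 (0.843), Sorcs3 (0.881) and Nr3c1 (0.674).

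Among channels and calcium genes the library of 17-21 was lowest for Kcnh7 (0.818), Kcnd2 (0.652), Pex5l (0.767), Scn3a (0.705), Scn4b (0.721), Calb1 (0.843), Camkk1 (0.720), Atp2b1 (0.834), Ryr3 (0.862) and Prkacb (0.687). Among presynaptic and adhesion genes it was lowest for Slc30a3 (0.820), Syt7 (0.799), Syt12 (0.716), C1ql3 (0.652), Cdh10 (0.777), Sema3e (0.766), Tenm1 (0.651) and Tenm3 (0.876), and it was highest for Slc17a7 (0.631). It was also lowest for the long noncoding RNA gene Pantr1 (0.876).

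The library labelled 2N of CA1 PNs of mouse 17-154 was highest for the triplicated genes App (0.686) and Synj1 (0.823). The other CA1 PN libraries with such a gap were those of Grik3, lowest in mouse 15-147 (0.671), and Chst8, lowest in mouse 17-172 (0.667). In DGCs the libraries with such a gap were spread over mice, namely 15-145 lowest for Cacna1d (0.840) and Pcsk5 (0.657), 17-56 lowest for Atp2b1 (0.714) and Synj1 (0.723) and highest for Kcnd2 (0.740), 17-21 lowest for Neurod1 (0.647) and Pex5l (0.638) and highest for Pde2a (0.649), 17-154 lowest for Grik4 (0.689) and highest for Grik3 (0.729), and 15-147 highest for Pde7b (0.700).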

How the results depend on the processing

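Without the replicate block, which the pairing by mouse calls for, 2551 genes were called higher and 2381 lower in CA1 PNs, and of the named genes Bdnf, Fos, mt-Cytb and mt-Nd2 lost their call. DESeq2 called 1727 and 1668, limma-voom 2563 and 2405, library totals in place of TMM 1894 and 3168, the filter of 0.1 CPM in 10 libraries 2242 and 2061, filterByExpr 1896 and 1885, and all genes without a filter 2354 and 2416. With 1 mouse left out at a time the calls ran from 2021 to 2501 higher and from 2006 to 2581 lower genes. List members called numbered 396, and from 332 (DESeq2) to 428 (without mouse 17-21) under these alternatives, which were added for the lists after seeing the data. The supplemented mice gave 4713 genes, 4536 without the block, 4917 with library totals, 3847 with filterByExpr and 3998 without the 3 mice with CA2 markers, an alternative added after seeing the data. The test of the diets gave 0 genes, also without the block, by DESeq2 and with filterByExpr, 20 without mice 17-21 and 17-154, and 9 without these and the 3 supplemented mice with CA2 markers. Of 199 named genes that passed, 16 lost the call under at least 1 alternative and 11 others gained one. With any 1 mouse other than 17-21 left out, Atp2b1, Fibcd1, Htr1a, Slc30a3, Sorcs3, Ncald and Pantr1 missed the threshold (adjusted p from 0.0526 to 0.108), and without 17-21 all 7 passed. Kcna1, Kcnh7, Nr4a2, Lrrtm1, Bdnf, mt-Cytb and mt-Nd2 lost it without some mice, and Dyrk1a lost it only without mouse 15-145. Cacng5 and Acan reversed without mice 17-21 and 17-154 (LFC -2.93 and -3.39). The cause was not tested. At 696340 to 1486710 counts per library, genes of a few CPM rest on few counts in each library.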

Other observations

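Noncoding genes, which the lists above leave out, also held genes with large differences. Of 1122 long noncoding RNA genes tested, 58 were higher and 131 lower in CA1 PNs (16.8% called), against 2310 and 1997 of 12459 protein-coding genes (34.6%). The genes named here were chosen after their values were seen. Meg3, an imprinted RNA, ran from 1757 to 4564 CPM (median 2883) in CA1 PNs and from 635 to 930.3 CPM (median 713) in DGCs (LFC 1.95 ± 0.19). Snhg11 ran from 754 to 1553 CPM (median 1135) and from 17.4 to 305 CPM (median 129) (LFC 3.58 ± 0.67), Mir100hg, a host of microRNA genes, had 37.0 and 5.37 CPM at the median (LFC 2.59 ± 0.29), and 4921539H07Rik ran from 50.8 to 119.9 CPM (median 73.9) in CA1 PNs with 2 counts in all DGC libraries. Pantr1, which lies beside the gene of the transcription factor Pou3f3, had 66.8 and 6.75 CPM (LFC 2.99 ± 0.68), its groups overlapped through the library of mouse 17-21, and it lost its call with any 1 of the other 5 mice left out. Gm34583, annotated as a transcribed processed pseudogene, ran from 57.1 to 101 CPM (median 79.7) in CA1 PNs and was at 0 in all DGC libraries. On the side of the DGCs, AI504432 ran from 0.733 to 8.23 CPM (median 3.05) in CA1 PNs and from 20.4 to 40.7 CPM in DGCs (LFC -3.32 ± 0.32).

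Of the 20 genes that passed the test of the diets without mice 17-21 and 17-154, 2 also passed when the 3 supplemented mice with CA2 markers were left out. The genes named were chosen after their values were seen. The differences in LFC between the diets (supplemented minus normal, log2) were -1.24 ± 0.20 and then -1.48 ± 0.20 for Rn7s6, and -0.61 ± 0.13 and then -0.64 ± 0.12 for Rmrp, both genes of noncoding RNA components. Of those that no longer passed, the synaptotagmin Syt13 went from 0.94 ± 0.20 to 0.34 ± 0.21, the cell death regulator Hrk from 1.42 ± 0.31 to 0.57 ± 0.35 and the potassium channel Kcna6 from 1.93 ± 0.45 to 0.71 ± 0.53. With all 13 mice no gene passed.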
